A study of Mus musculus with 12 samples.

Results

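Srm, Slc19a1, Slc29a2 and Dctpp1 encode proteins that supply a growing cell with polyamines, folate and nucleotides, and all 4 are known as genes that the transcription factor MYC activates. They were chosen by symbol, with earlier results of these data known. They made up 4 of the 982 genes in the deposited table, in which all 4 were found. The table holds RNA sequencing of 6DT1, a line of mouse breast cancer cells that came from an MMTV-Myc tumor, in which the mammary promoter of a mouse tumor virus drives a Myc transgene. The 12 libraries formed 4 groups of 3: sgControl, whose labels give wild type cells with the sgScranble control, and sg1, sg2 and sg3, labelled Resf1 KO, each edited with another CRISPR guide against Resf1, the gene of retroelement silencing factor 1. The labels give medium with puromycin for all groups, but their treatment text describes a knockdown in human cells, so they may not hold for these lines throughout.

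Per the study's methods the guides cut different parts of exon 3, the largest exon of Resf1, carried on a vector with Cas9 and GFP, and each line was grown from a single sorted cell. The 3 libraries of a group are dishes of 1 line, so a guide and the clone that carries it cannot be told apart, and the p-values measure the spread between dishes. Resf1 was not analysed here, so the knockouts were not checked in these values. The summed values of a library ranged from 2069298.3 to 2713951.3 normalized counts over the table. The table appears already chosen for genes that differ between the guides and the control, so it offers few unchanged genes against which to judge the scaling. The epithelial keratins Krt8, Krt18 and Krt19 were present, at 6215 ± 187, 5784 ± 138 and 495 ± 65.7 normalized counts in sgControl (SD, n = 3).

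Polyamines are small positively charged molecules that bind nucleic acids and are needed for translation and division. Spermidine synthase, made from Srm, adds an aminopropyl group to putrescine, and spermidine is in turn the donor for the hypusine residue of the translation factor eIF5A. Slc19a1 is the reduced folate carrier, which brings folate into the cell for the one-carbon reactions that build thymidylate and purines. Slc29a2 is the equilibrative nucleoside transporter ENT2, which carries nucleosides across the membrane and so serves their salvage. Dctpp1 is a pyrophosphatase that hydrolyzes dCTP and its modified forms and so cleans the deoxynucleotide pool. MYC, dimerized with MAX, binds E-box elements near the promoters of many such genes.

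The 4 genes lie on different chromosomes in the GENCODE annotation of GRCm38, none of them on chromosome 15 with Myc. Srm (ENSMUSG00000006442) occupies chr4:148591503-148594993 on the plus strand. Slc19a1 (ENSMUSG00000001436) occupies chr10:77032241-77061002 on the plus strand. Slc29a2 (ENSMUSG00000024891) occupies chr19:5023860-5031972 on the plus strand. Dctpp1 (ENSMUSG00000042462) occupies chr7:127256959-127260709 on the minus strand. Slc19a1 was the only one of the 4 that overlaps another annotated gene, Col18a1 on the opposite strand, over 8825 bases with 0 shared exonic bases.

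Sequences upstream of RefSeq transcription starts of 3 of the genes are shown because E-boxes near the start are where MYC is known to bind. They come from RefSeq, build GRCm38.p6, 5′ to 3′ on the strand of the gene, and stop where an annotated exon begins. Of the 250 bases before each start, the first 208 are shown for Dctpp1, 195 for Slc19a1 and 104 for Slc29a2. The bases nearest the start are therefore not shown. Capitals mark the general E-box letters CANNTG, and none of those marked is the canonical CACGTG. Binding of MYC was not tested. The set of RefSeq promoters used here gave 1 start for Dctpp1 and for Slc29a2 and 2 starts for Slc19a1, of which the upstream one is shown. That set held no entry for Srm. The Slc19a1 stretch lies inside the span that GENCODE gives the gene, downstream of its first annotated start.
Dctpp1, chr7:127260710-127260917, minus strand: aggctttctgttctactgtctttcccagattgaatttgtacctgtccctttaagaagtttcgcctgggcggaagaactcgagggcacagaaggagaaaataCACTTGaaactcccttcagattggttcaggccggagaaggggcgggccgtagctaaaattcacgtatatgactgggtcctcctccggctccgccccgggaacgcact
Slc19a1, chr10:77032489-77032683, plus strand: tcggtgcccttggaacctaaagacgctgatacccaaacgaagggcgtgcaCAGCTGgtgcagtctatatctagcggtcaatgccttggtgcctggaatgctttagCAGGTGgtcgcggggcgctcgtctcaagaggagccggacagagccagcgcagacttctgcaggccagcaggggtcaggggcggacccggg
Slc29a2, chr19:5023756-5023859, plus strand: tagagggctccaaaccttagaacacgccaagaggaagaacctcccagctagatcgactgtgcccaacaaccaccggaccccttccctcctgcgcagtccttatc

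Over the 250 bases before each start, searched on both strands, the canonical E-box CACGTG was not found in the windows of these 3 genes. It was present in 6.02% of 32851 RefSeq mouse promoters of the same length. CANNTG, which contains CACGTG, occurred once in Dctpp1, at 2 places in each Slc19a1 window and nowhere in the Slc29a2 window, and 66.22% of the promoters held it. The Slc19a1 window also held a run of guanines matching a G-quadruplex pattern, 4 runs of 3 or more G separated by 1 to 7 bases, at chr10:77032663-77032689, from 76 to 50 bases before the start. Its letters, with the G runs in capitals, are GGGGtcaGGGGcggacccGGGGaGGGG, and 16.69% of promoters held such a pattern. A match describes only letters in this window.

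In sgControl the level per kilobase of longest annotated transcript was 2845 ± 274 for Srm, 893 ± 33.2 for Dctpp1, 363 ± 43.0 for Slc19a1 and 106 ± 16 for Slc29a2 (normalized counts per kilobase, SD, n = 3). Srm therefore stood highest and Slc29a2 lowest, with no overlap of their spreads, though the transcript that these cells use was not determined.

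The first question was whether each line edited at Resf1 had another level of these genes than the control line. In sg1 all 4 genes fell, by 26.9% for Srm, 28.1% for Dctpp1, 32.3% for Slc19a1 and 36.9% for Slc29a2 on the log2(value + 1) scale, and for each gene all 3 sg1 libraries lay below all 3 controls. In sg2 only Slc29a2 passed the test, and in sg3 only Srm did, both lower. The other 6 differences in sg2 and sg3 were also below 0 and did not pass. Because the table appears chosen on guides against control, these p-values and the shared direction are not independent of that choice. The test was limma on log2(value + 1) over all 12 libraries, with p-values adjusted by Benjamini-Hochberg over all 982 genes and a threshold of 0.05. Among all genes of the table, 39.1% were called lower with sg1, 29.4% with sg2 and 33.4% with sg3, so the single call in sg2 and in sg3 is near this background. In bulk libraries such as these, fewer expressing cells and less RNA per cell cannot be told apart.

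**Figure D1:**
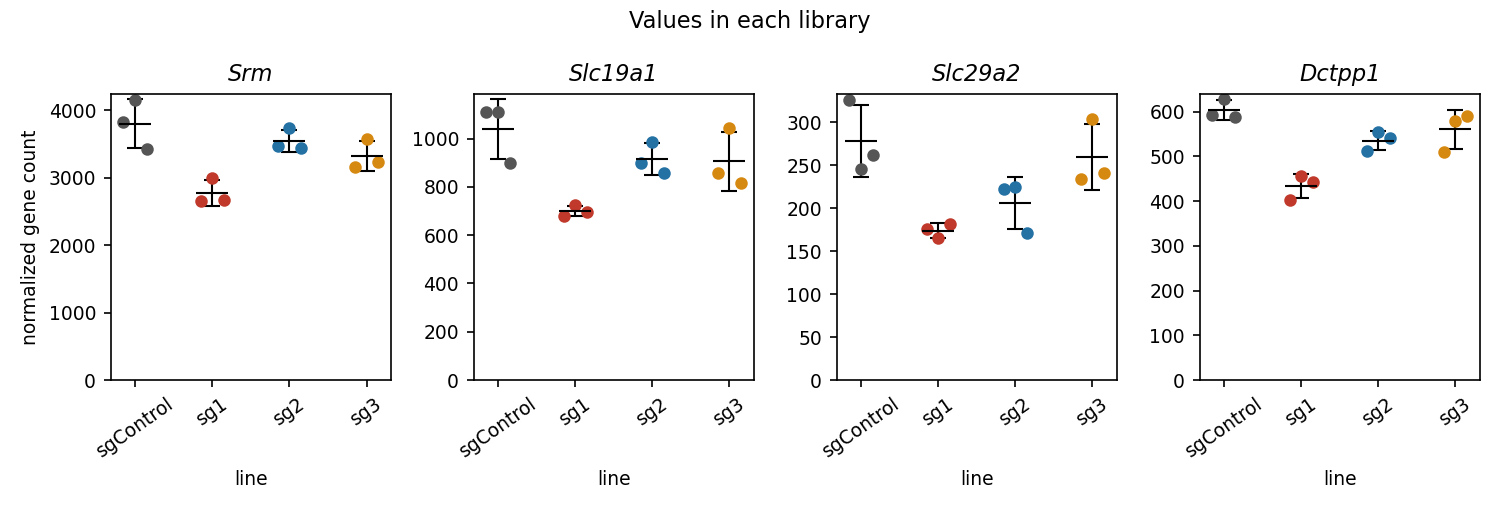
Normalized gene count (vertical axis, from 0) of each of the 4 genes in every library, 3 points a line in the order of replicates 1 to 3, with the mean and SD as black bars. In each panel the 3 sg1 libraries lie below the 3 sgControl libraries, whereas sg3 overlaps the controls.

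Srm, the polyamine gene, had normalized counts of 3828, 4161 and 3430 in the control libraries and 2656, 2999 and 2675 in sg1. The values were 3476, 3735 and 3438 in sg2 and 3160, 3583 and 3238 in sg3. The sg1 libraries were the lowest 3 of the 12, no sg2 library was below the lowest control, and 2 of the 3 sg3 libraries were. The mean was 3806 ± 366 for the control line, 2777 ± 193 for sg1, 3550 ± 162 for sg2 and 3327 ± 225 for sg3 (SD, n = 3).

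Srm was 1.37-fold lower in sg1 (log2 difference -0.45, SE 0.07, limma adjusted p = 1.7e-05). In sg3 it was 1.14-fold lower (log2 difference -0.19, 95% interval -0.34 to -0.04, limma adjusted p = 0.0283). In sg2 the difference did not pass (log2 difference -0.10, 95% interval -0.25 to 0.05, limma adjusted p = 0.23). The sg3 call was lost without sgControl replicate 1 or 2 or without sg3 replicate 1 or 3, where the adjusted p ranged from 0.073 to 0.151, and with limma without its trend and robust options (adjusted p = 0.0709). With the trend of values with transcript length and GC content removed, the difference was 0.058 in sg3 (adjusted p = 0.404) and 0.066 in sg2 (adjusted p = 0.324), and without sgControl replicate 3 the sg2 difference was -0.17 and passed (adjusted p = 0.0491).

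Slc19a1, the folate carrier, had normalized counts of 1111, 1109 and 897 in the control libraries and 681, 724 and 695 in sg1. The values were 897, 987 and 857 in sg2 and 857, 1044 and 815 in sg3. Control replicate 3 stood apart from the other two controls, and sg2 replicate 1 was nearly equal to it. The mean was 1039 ± 123 for the control line, 700 ± 22.4 for sg1, 914 ± 66.6 for sg2 and 905 ± 122 for sg3 (SD, n = 3).

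Slc19a1 was 1.48-fold lower in sg1 (log2 difference -0.56, SE 0.09, limma adjusted p = 3.65e-05). The difference was -0.18 in sg2 (95% interval -0.38 to 0.02, limma adjusted p = 0.104) and -0.20 in sg3 (95% interval -0.40 to 0.00, limma adjusted p = 0.0762), and neither passed. With the replicate number as a block, the sg2 difference passed (adjusted p = 0.0269). The sg3 difference passed with it too, though the numbers did not correlate between sgControl and sg3. Without control replicate 3 the difference was -0.28 in sg2 (adjusted p = 0.0166) and -0.30 in sg3 (adjusted p = 0.012), and without sg3 replicate 2 it was -0.31 in sg3 (adjusted p = 0.00864). Col18a1, which lies partly across Slc19a1 on the other strand and encodes a collagen chain, moved the other way in sg1, from 3042 ± 96.2 to 5995 ± 295 normalized counts (SD, n = 3; limma adjusted p = 2.99e-11). How strand was handled in counting is not given in the sources used here.

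Slc29a2, the nucleoside transporter, had the lowest values of the 4 genes. It had normalized counts of 325, 246 and 262 in the control libraries and 175, 165 and 181 in sg1. The values were 223, 224 and 171 in sg2 and 234, 303 and 241 in sg3. All sg1 and sg2 libraries lay below the lowest control, whereas sg3 overlapped the controls with 2 of 3 libraries below it. The mean was 278 ± 41.9 for the control line, 174 ± 8.29 for sg1, 206 ± 30.3 for sg2 and 259 ± 38.1 for sg3 (SD, n = 3).

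Slc29a2 showed a 1.58-fold lower level in sg1 (log2 difference -0.66, SE 0.13, limma adjusted p = 0.00021) and a 1.35-fold lower level in sg2 (log2 difference -0.43, SE 0.13, limma adjusted p = 0.0121). In sg3 the difference was -0.10 (95% interval -0.38 to 0.18, limma adjusted p = 0.524). The sg2 call was lost without sgControl replicate 1, the highest library (log2 difference -0.31, adjusted p = 0.0752), and without sg2 replicate 3, the lowest of that line (log2 difference -0.30, adjusted p = 0.0767). The sg3 difference was above 0 without sgControl replicate 1, at 0.021, and with the length and GC trend removed, at 0.073.

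Dctpp1, the nucleotide pyrophosphatase, varied least between the control libraries, with a coefficient of variation of 3.72%. It had normalized counts of 593, 629 and 588 there and 403, 456 and 443 in sg1. The values were 512, 555 and 540 in sg2 and 511, 579 and 591 in sg3. Every sg1 and sg2 library lay below the lowest control, as did 2 of the 3 sg3 libraries. The mean was 604 ± 22.4 for the control line, 434 ± 27.6 for sg1, 536 ± 21.7 for sg2 and 561 ± 43.4 for sg3 (SD, n = 3).

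Dctpp1 was 1.39-fold lower in sg1 (log2 difference -0.48, SE 0.08, limma adjusted p = 1.81e-05). The difference was -0.17 in sg2 (95% interval -0.33 to -0.01, limma adjusted p = 0.0562) and -0.11 in sg3 (95% interval -0.27 to 0.05, limma adjusted p = 0.21), so neither passed after adjustment. With the replicate number as a block the sg2 difference passed (adjusted p = 0.0226), and it also passed in a fit of sg2 and sgControl alone (adjusted p = 0.0451) and without sg3 replicate 1, which enters only through the shared spread (adjusted p = 0.0374). With the length and GC trend removed, the sg2 difference was 0.0092, and the sg3 difference turned to 0.18 and passed as higher (adjusted p = 0.0305). Without sg3 replicate 1, the lowest of that line, the sg3 difference was -0.044 (adjusted p = 0.623).

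Counted by libraries that do not overlap, 4 of the 4 genes had every sg1 library below every control, against 39.7% of all genes in the table. In sg2 this held for Slc29a2 and Dctpp1, 2 of the 4, against 34.9% of the table. In sg3 it held for 0 of the 4, against 33.3%. With the replicate block, 3 of the 4 genes were called lower in sg2 in place of 1, and with the 4 other scalings of the libraries between 2 and 4 were. Of all genes, 34.4% were called lower in sg2 with the block and 33.5% to 48.2% with those scalings. Read with the share of the table called lower, sg1 is the line in which the count of members lay furthest above that share. The 4 genes were chosen with earlier results of these data known, so this comparison is a description and not a test. The 4 log2 differences had a median of -0.52 for sg1, -0.18 for sg2 and -0.15 for sg3, and those of all genes were 0.20, -0.02 and -0.03.

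**Figure D2:**
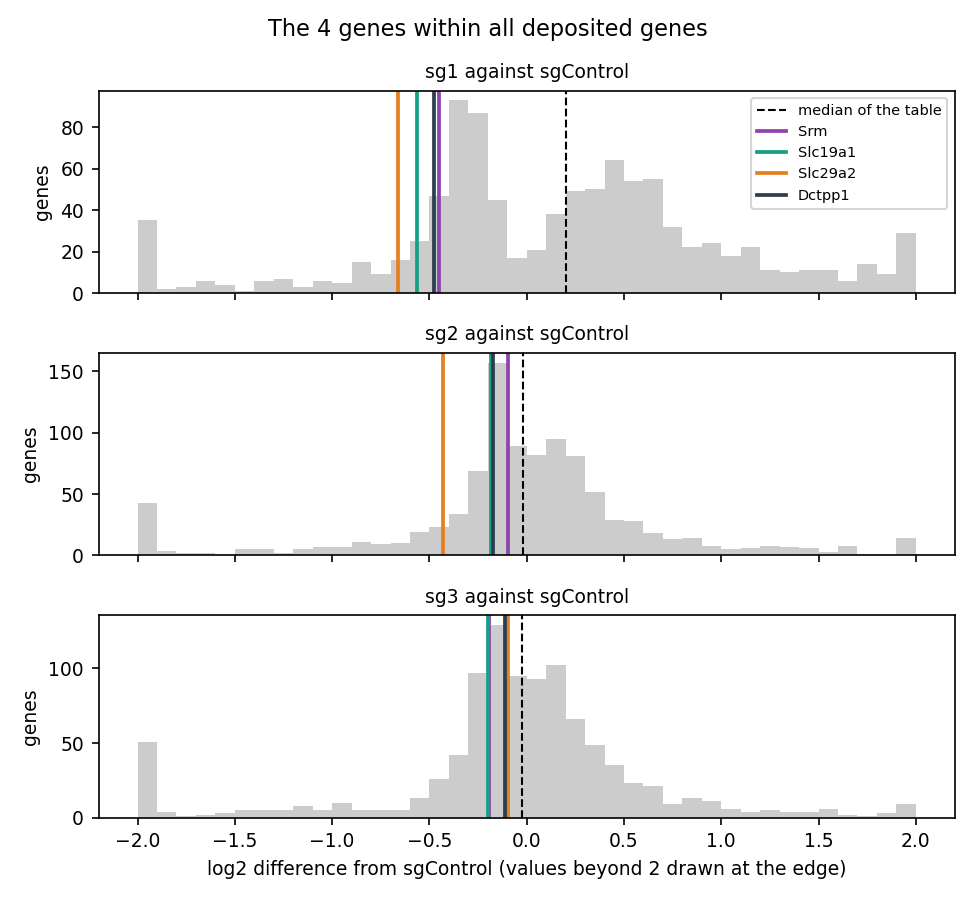
Number of genes (vertical axis) by log2 difference from sgControl (horizontal axis) for all 982 genes, 1 panel a line, with the table's median as a dashed line and the 4 genes as colored lines. In sg1 the 4 genes lie between -0.66 and -0.45 while the table's median is 0.20, and in sg2 and sg3 all but Slc29a2 in sg2 lie between -0.20 and -0.10.

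In the order of all differences in the table, Slc29a2 had 10.79% of genes below it in sg1 and Srm had 15.89%, so the members were in the lower part but not at its end. In sg2 the shares ran from 14.97% for Slc29a2 to 42.36% for Srm. In sg3 they ran from 29.63% for Slc19a1 to 43.18% for Slc29a2.

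The second question was whether the 3 guides gave the same level. The test that sg1, sg2 and sg3 were equal was passed by all 4 genes, with limma adjusted p of 0.000604 for Srm, 0.00204 for Slc19a1, 0.00351 for Slc29a2 and 0.000564 for Dctpp1. Of the whole table, 75.3% of genes passed this test. All 3 sg1 libraries lay below all 9 other libraries for Srm, Slc19a1 and Dctpp1, a pattern that 15.4% of the table's genes had. For Slc29a2 the lowest sg2 library, at 171, fell within the range of sg1.

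Between sg1 and sg2, 3 of the 4 genes were lower in sg1, against 26.7% of the table. The log2 differences were -0.36 for Srm (limma adjusted p = 0.000281), -0.38 for Slc19a1 (limma adjusted p = 0.00183) and -0.30 for Dctpp1 (limma adjusted p = 0.00174). For Slc29a2 the difference was -0.23 (95% interval -0.51 to 0.05, limma adjusted p = 0.133). It passed in 6 of 24 alternatives, 3 of the other scalings, both removals of the length and GC trend and the fit without sg2 replicate 3 (-0.36, adjusted p = 0.0282), with a lowest adjusted p of 0.0129.

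All 4 genes were lower in sg1 than in sg3, against 23.2% of the table. The log2 differences were -0.26 for Srm (limma adjusted p = 0.00354), -0.36 for Slc19a1 (limma adjusted p = 0.00265), -0.57 for Slc29a2 (limma adjusted p = 0.00118) and -0.37 for Dctpp1 (limma adjusted p = 0.000325). Between sg2 and sg3, 0 of the 4 genes passed in limma, against 30.5% of the table in either direction. The log2 difference of sg2 from sg3 was 0.09 for Srm (95% interval -0.05 to 0.24), 0.02 for Slc19a1 (-0.18 to 0.22) and -0.06 for Dctpp1 (-0.22 to 0.10). For Slc29a2 it was -0.33 (95% interval -0.62 to -0.05), with limma adjusted p = 0.0712. It passed in 6 of 24 alternatives, the 4 other scalings and both removals of the length and GC trend, with a lowest adjusted p of 0.0115, and was -0.21 without sg2 replicate 3 and -0.22 without sg3 replicate 2. For Dctpp1 the difference passed in 1 alternative, the replicate block with that trend removed (-0.17, adjusted p = 0.0409), and ran from -0.13 without sg3 replicate 1 to -0.024 without sg3 replicate 3.

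The order of the means was therefore sgControl, sg2, sg3 and sg1 for Srm and Slc19a1, and sgControl, sg3, sg2 and sg1 for Slc29a2 and Dctpp1. Among neighbours in these orders, sg1 differed from the next line for Srm, Slc19a1 and Dctpp1 but not past the threshold for Slc29a2. The neighbours sg2 and sg3 did not differ past the threshold for any of the 4 genes as fitted, with the exceptions by setting given above for Slc29a2 and Dctpp1. The top neighbours did not either, sgControl and sg2 for Srm and Slc19a1, and sgControl and sg3 for Slc29a2 and Dctpp1.

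**Figure D3:**
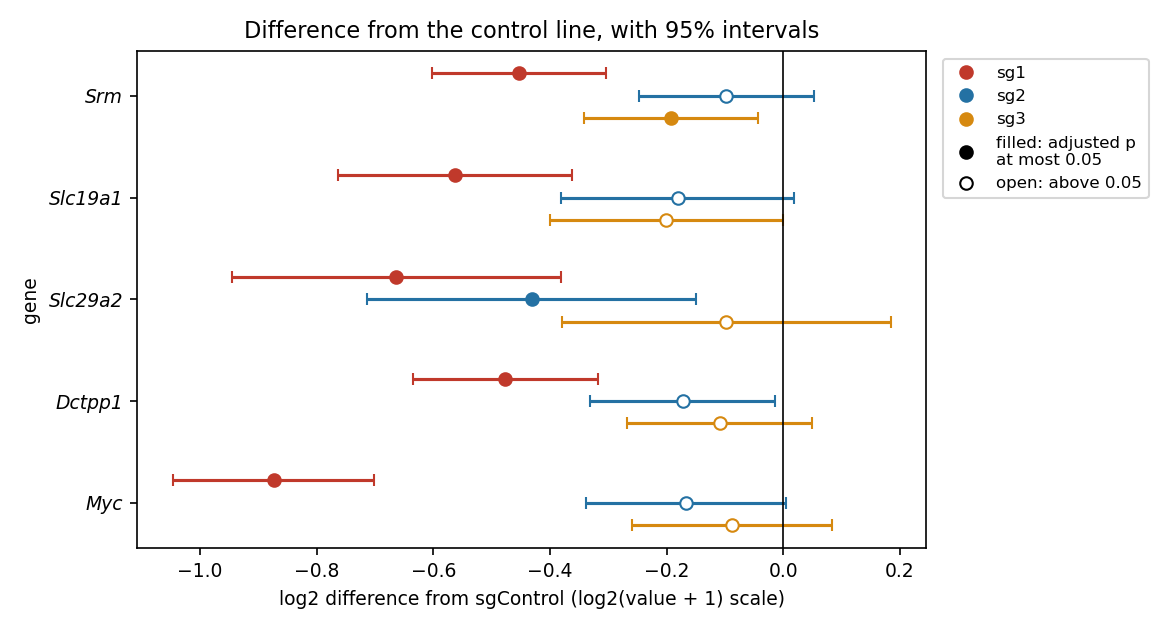
Log2 difference from sgControl (horizontal axis) with its 95% interval for the 4 genes and Myc (vertical axis), colored by line, with filled points where limma adjusted p was at most 0.05. All sg1 points are filled and lie between -0.87 and -0.45, and of the others only Slc29a2 in sg2 and Srm in sg3 are filled.

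Myc itself, whose product is known to activate these genes, had normalized counts of 17719, 15024 and 18849 in the control libraries. In sg1 the values were 9470, 9364 and 9189, all below the other 9 libraries. They were 16655, 14363 and 14825 in sg2 and 15406, 18041 and 15030 in sg3, and both lines overlapped the controls. Myc fell in sg1 with a log2 difference of -0.87 (SE 0.08, limma adjusted p = 4.38e-08). The difference was -0.17 in sg2 (limma adjusted p = 0.0838) and -0.09 in sg3 (limma adjusted p = 0.343). Reads of the MMTV-Myc transgene may be among those counted to Myc.

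Over the 12 libraries, the log2 levels of the members rose and fell together to different degrees. Pearson's r was 0.96 for Srm with Slc19a1, 0.89 for Srm with Dctpp1 and 0.66 for Srm with Slc29a2. With Myc it ranged from 0.77 for Srm to 0.85 for Dctpp1. The median r with the other genes of the table was -0.24 for Srm, -0.25 for Slc19a1, -0.22 for Slc29a2 and -0.25 for Dctpp1. After the mean of each line was taken out, Srm and Slc19a1 gave 0.86, Srm and Dctpp1 0.63, Slc19a1 and Slc29a2 0.60, Slc19a1 and Dctpp1 0.35, Srm and Slc29a2 0.23, and Slc29a2 and Dctpp1 -0.0032. With the line means out, r with Myc ranged from -0.30 for Dctpp1 to 0.55 for Slc29a2. These are descriptions across 12 libraries that share 4 lines and 1 size factor each. Replicate 2 was the highest dish in 12 of the 16 combinations of gene and line.

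By the same measure, the genes most like Srm were Xpot, G3bp1 and Mybbp1a, with r of 0.98 each. For Slc19a1 they were Gemin5, Usp10 and Tcof1, with r of 0.98, 0.97 and 0.97. For Dctpp1 they were Lap3, Bzw2 and Slc25a5, with r of 0.98, 0.96 and 0.96. For Slc29a2 they were Man2a2, Gtf2i and Mcrip2, with r of 0.90, 0.89 and 0.88, the weakest of the 4 sets. With the line means taken out, the likest genes of Srm kept r between 0.92 and 0.93, and those of Slc29a2 had between 0.52 and 0.60.

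The other deposited genes of the same pathways were then counted. The pathway lists and the list of MYC targets below were written with earlier results of these data known. Of 25 listed polyamine genes 3 were in the table, Srm and the hypusinated factors Eif5a and Eif5a2. In sg1, 2 of these 3 were called lower, in sg2 1 and in sg3 2, where the table as a whole had 39.1%, 29.4% and 33.4%. With the replicate block, 3 of the 3 were called lower in sg1, beside 39.8% of all genes. Eif5a fell by 0.29 on the log2 scale in sg1 (limma adjusted p = 4e-04) and by 0.20 in sg3 (limma adjusted p = 0.0138), from 24908 ± 1011 normalized counts in sgControl. Eif5a2, at 18.6 ± 1.30 in sgControl and 3.03 ± 2.18 in sg2 (SD, n = 3), was the 1 called in sg2 (log2 difference -2.45, limma adjusted p = 0.000681).

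Of 31 listed folate and one-carbon genes 3 were in the table, Slc19a1 and the serine hydroxymethyltransferases Shmt1 and Shmt2, which charge folate with one-carbon units in the cytosol and the mitochondrion. All 3 were called lower in sg1, beside 39.1% of all genes, and 0 of the 3 in sg2 or sg3, beside 29.4% and 33.4%. With the replicate block, 2 of the 3 were called lower in sg2, Slc19a1 and Shmt2, beside 34.4%. Shmt1 went from 920 ± 61.3 in sgControl to 599 ± 30.7 in sg1 (log2 difference -0.62, limma adjusted p = 4.89e-07). Shmt2 went from 6365 ± 398 to 4997 ± 339 (log2 difference -0.35, limma adjusted p = 0.000197).

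Of 63 listed genes of nucleoside transport and nucleotide metabolism 8 were in the table, and in sg1 7 were called lower and 1 higher, where 39.1% of all genes were called lower and 50.1% higher. Beside Slc29a2 and Dctpp1, the lower ones were Cad of pyrimidine synthesis, Pfas of purine synthesis, Impdh1 of guanine nucleotide synthesis, the adenylate kinase family member Ak3 and the nucleotidase Nt5c2. Their log2 differences in sg1 were -0.36 for Cad, -0.36 for Pfas, -0.75 for Impdh1, -1.10 for Ak3 and -0.20 for Nt5c2, with limma adjusted p of at most 0.0111. The 1 higher was the adenylate kinase Ak1, at 327 ± 44.5 in sgControl and 956 ± 72.6 in sg1 (log2 difference 1.55, limma adjusted p = 7.99e-11).

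In sg2, 2 of the 8 nucleotide genes were called lower, Slc29a2 and Nt5c2 (log2 difference -0.33, limma adjusted p = 0.00052). In sg3, Impdh1 was called lower (log2 difference -0.30, limma adjusted p = 0.00155) and Ak1 higher (log2 difference 0.66, limma adjusted p = 8.23e-06). As fitted, these counts of lower genes are not above the shares of the table, 29.4% in sg2 and 33.4% in sg3. With the replicate block, 5 of the 8 were called lower in sg2, Slc29a2, Dctpp1, Cad, Pfas and Nt5c2, and Ak1 was called higher, beside 34.4% of all genes called lower.

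**Figure D4:**
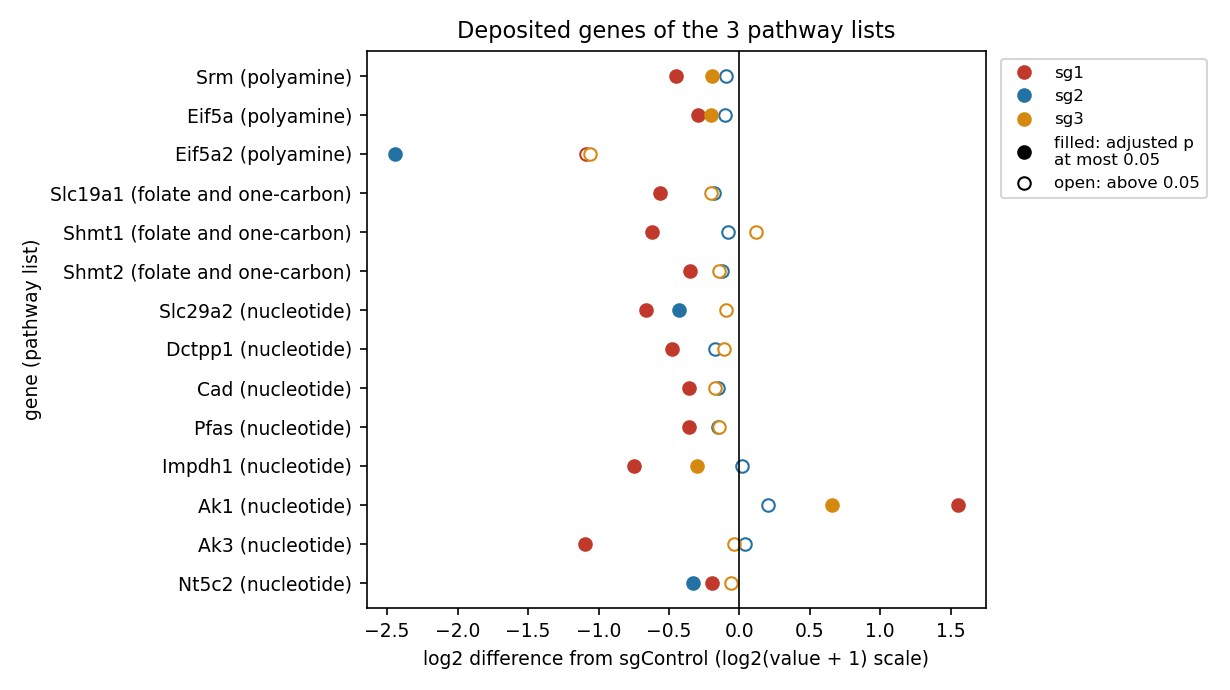
Log2 difference from sgControl (horizontal axis) of the deposited genes of the polyamine, folate and nucleotide lists (vertical axis), colored by line, with filled points where limma adjusted p was at most 0.05. In sg1 all but Eif5a2 are filled, and Ak1 alone lies above 0 among them.

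Of 62 listed MYC targets 13 were in the table, the 4 genes and Cad among them, and 13 were called lower with sg1, 5 with sg2 and 7 with sg3, beside 39.1%, 29.4% and 33.4% of all genes. Apart from Cad and the 4 genes, the list held the nucleolar and ribosome factors Nolc1, Nop2, Nop16, Tcof1 and Mybbp1a, the importin Ipo4, the synthetase subunit Farsa and the prohibitin Phb. Their log2 differences in sg1 ranged from -0.41 for Nolc1 to -0.18 for Farsa, smaller in size than those of the 4 genes. The sg2 count was 12 with the replicate block, beside 34.4% of all genes. Without 1 library it was 11 for sgControl replicate 3, 1 for sgControl replicate 1 or sg2 replicate 3, 2 for sgControl replicate 2, and 3 for replicate 1 of sg1 or sg2 or replicate 3 of sg3, and the share of all genes called lower in sg2 was 20.7% to 28.4% in these fits. The sg3 count was 2 without sgControl replicate 2 or sg3 replicate 1, and 3 without sgControl replicate 1 or sg3 replicate 3, beside 23.6% to 26.9% of all genes. Over all fits without 1 library it ran from 2 to 10, beside 23.6% to 37.5% of all genes. Farsa, Nop16, Phb and Tcof1 were called lower in both sg2 and sg3, and Ipo4 and Mybbp1a in sg3. In sg2 the differences of these 4 ranged from -0.20 for Phb to -0.15 for Tcof1, and in sg3 those of the 6 ranged from -0.28 for Farsa to -0.15 for Tcof1.

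Marker genes of the cell types were looked at beside these results. All 3 epithelial keratins in the table, of 8 listed, were higher in sg1, where the 4 genes were lower, Krt8 at 13333 ± 717 and Krt18 at 10044 ± 367 normalized counts (SD, n = 3). Of all genes, 50.1% were called higher in sg1. All 3 keratins were lower in sg3, beside 33.4% of all genes, with Krt19 at 182 ± 31.6, and Krt19 alone was called in sg2, as lower, a call lost with the replicate block. Of 5 leukocyte markers Cd68 alone was in the table, at 135 ± 28.2 in sgControl and 305 ± 22.0 in sg1, and none of the 6 fibroblast and 3 endothelial markers was. The summed level of the 3 keratins ranged from 12315 to 12775 over the control libraries, from 22937 to 25215 over sg1, from 12006 to 12330 over sg2 and from 9461 to 10698 over sg3. No listed marker in the table was at 0. The other 5 epithelial markers, Epcam and Cdh1 among them, were not analysed here. The part of these shifts in the results was not tested.

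The spread between dishes was in part as small as counting allows. For Slc19a1 in sg1 the coefficient of variation was 3.19%, against 3.87% from counting error alone, as estimated from the size factors. For Srm in sgControl it was 9.62% against 1.58%, so the libraries there differed by more than counting error, and the sources of the excess were not separated. Over the genes of the table with a mean of at least 50 normalized counts, the median coefficient of variation in a line was between 5.16% and 6.74%.

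The 4 genes were shorter and richer in GC than the medians of the table. Their longest annotated transcripts had 1338 bases for Srm, 2863 for Slc19a1, 2619 for Slc29a2 and 676 for Dctpp1, and the median of 972 matched genes was 3630. Their GC content ran from 54.49% for Slc19a1 to 59.79% for Srm, above the table's median of 50.66%. With the trend on both removed, all 4 genes were still called lower in sg1, and Slc29a2 alone was called lower in sg2 and 0 of the 4 were in sg3. Under that setting 45.8% of all genes were called lower in sg1, 29.8% in sg2 and 28.7% in sg3.

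**Figure D5:**
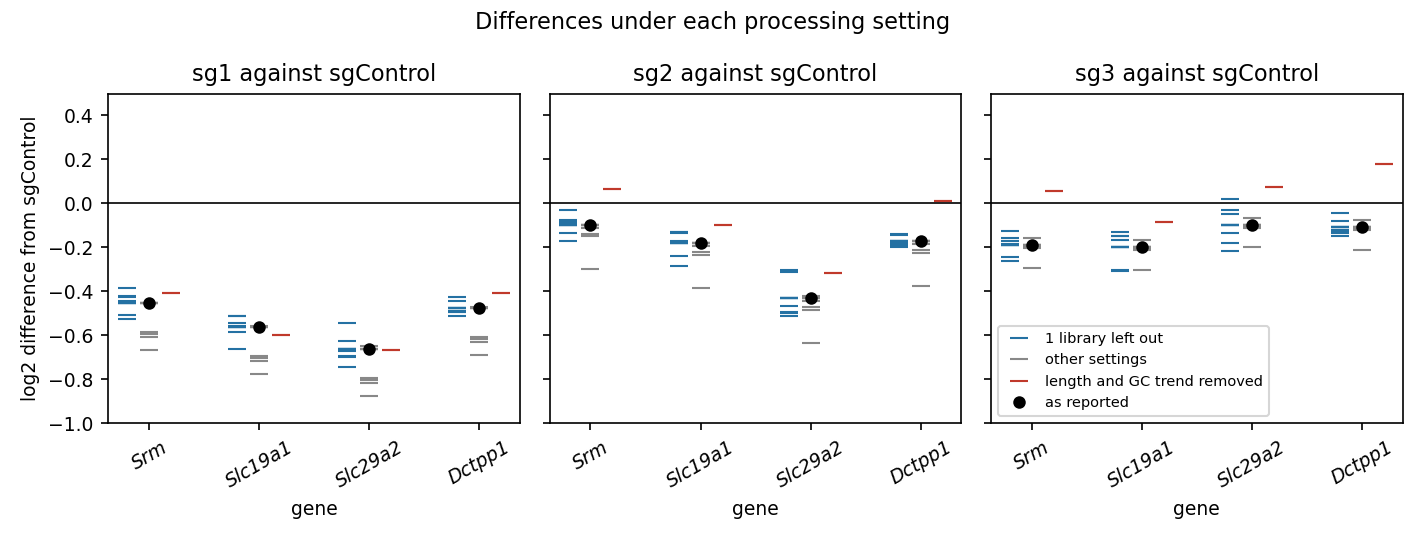
Log2 difference from sgControl (vertical axis) of each gene (horizontal axis) as reported (black) and under every other setting, 1 panel a line, with settings that leave out 1 library in blue, settings with the length and GC trend removed in red and the rest in gray. In sg1 every mark lies at or below -0.39, whereas in sg2 and sg3 the red marks of Srm and Dctpp1 lie above 0.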

How the data were processed

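RNA sequencing of 12 libraries was analysed from a table of 982 genes. Per the labels, RNA came from dishes seeded in triplicate and was made into stranded total RNA libraries. The deposited values are a signal that the authors normalized: each library's gene counts over a single size factor, as read here from the values, since 79.9% to 85.5% of values under 100 estimated reads were whole to within 0.05 reads. Whole reads could not be recovered for all genes, so no count test was run. The study names STAR 2.7.8a in Partek Flow and median ratio scaling for human libraries. The mouse build, annotation and counting method are not given in the sources used here. Estimated reads in the table ran from 1917222 to 2780834 per library, and intervals of counting error cover that error only.

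Groups came from the labels. log2(value + 1) of all genes was fitted in limma 3.58.1 (R 4.3.3) over all 12 libraries, with trend and robust options, no filter and Benjamini-Hochberg adjustment over 982 genes at 0.05, two-sided. Contrasts were each guide against sgControl, the guides against each other and their equality. The mean of the guides was not tested, because the table appears chosen on a contrast like it. Replicate numbers are in the labels, which do not say what a number marks. Deviations from the line means correlated between same-numbered libraries at 0.199 to 0.238 for sgControl with sg1 and at 0.122 to 0.165 for sgControl with sg2, all over 0.1, and at -0.079 to -0.004 for sgControl with sg3. The block is therefore given beside sg2 results that it changes, as a hint of pairing from the data. It was fitted over all 12 libraries, sg3 among them. Between guide lines the correlations ran from -0.032 to 0.324 for sg1 with sg2. They ran from -0.022 to 0.192 for sg1 with sg3 and from -0.064 to 0.165 for sg2 with sg3. Differently numbered libraries were not compared.

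The 4 genes and the gene lists were chosen with earlier results of these data known. Named genes were the 4, Myc, the 3 genes most alike each by Pearson's r over 12 libraries, listed genes called in a guide line, and the cell type markers. Col18a1 was added after its values were seen. Symbols matched 972 genes and 10 had none. Alternatives were pseudocounts of 0.5 and 5, a filter at a mean of 50, 4 other scalings, plain limma, a fit of each pair alone, a test against 1.2-fold, the replicate block, removal of a loess trend (span 0.75) on length and GC, both together, and leaving out each library.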

Additional observations from a re-analysis of the deposited data

Results flagged for a closer look

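The level differed among the 3 guide lines for each of the 4 genes, by limma's test that sg1, sg2 and sg3 are equal: adjusted p was 0.000604 for Srm, 0.00204 for Slc19a1, 0.00351 for Slc29a2 and 0.000564 for Dctpp1. In all 4 genes the lowest mean was in sg1, and guide and clone cannot be told apart. The same test was passed by 739 of the 982 genes.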

How the results depend on the processing

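In sg1 the 4 genes kept a lower call in all 25 alternatives run, with log2 differences from -0.88 to -0.39 and a highest adjusted p of 0.017. All 4 genes differed among the guides in all 23 alternatives run for that test. Other scalings moved the table's median in sg1 from 0.20 to between -0.01 and 0.07, and scaling to the table total moved it in sg2 from -0.02 to -0.22 and in sg3 from -0.03 to -0.13.

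The smaller differences in sg2 and sg3 depended on the setting. The table total as scale gave called differences in sg2 of -0.30 for Srm, -0.38 for Slc19a1 and -0.38 for Dctpp1, and in sg3 of -0.30 for Slc19a1. Median-of-ratios scaling and the upper quartile gave called sg2 differences of -0.22 and -0.23 for Slc19a1 and of -0.21 and -0.22 for Dctpp1, and the total without its largest gene gave -0.19 for Dctpp1. Of the 4 genes, 4 were called lower in sg2 with the table total, 3 with median-of-ratios and with the upper quartile, 2 with the total without its largest gene, 2 in the fit of the pair alone, where Dctpp1 stayed at -0.17 and passed, and 0 when tested against a 1.2-fold change, where Slc29a2 stayed at -0.43 and did not pass. In sg3, 2 were called with the table total, 0 in limma without trend and robust options and 0 against a 1.2-fold change, where Srm stayed at -0.19 and did not pass. Over the whole table the 1.2-fold test called 157, 112 and 109 genes lower in sg1, sg2 and sg3, against 384, 289 and 328, and the table total called 473 in sg2. In the pairs of guides, the 1.2-fold test ended 6 of the 7 called differences.

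With the replicate block, the same differences of -0.18 for Slc19a1 and -0.17 for Dctpp1 in sg2 and -0.20 for Slc19a1 in sg3 passed, so that 3 of the 4 genes were called in sg2 and 2 in sg3. The block changed no other call of the 4 genes. The numbers did not correlate between sgControl and sg3. Removing the trend on transcript length and GC, with or without the block, turned the sign in sg2 for Srm (0.066) and Dctpp1 (0.0092) and in sg3 for Srm (0.058), Slc29a2 (0.073) and Dctpp1 (0.18), and 0 genes were called lower in sg3. The difference of sg2 from sg3 turned for Srm with the table total (-0.0064), and for Slc19a1 with median-of-ratios (-0.0145), the table total (-0.082), that total without its largest gene (-0.028), the upper quartile (-0.020) and the trend removed (-0.016). The causes were not tested.

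Leaving out 1 library at a time gave sg2 differences from -0.17 to -0.031 for Srm, from -0.28 to -0.13 for Slc19a1, from -0.51 to -0.30 for Slc29a2 and from -0.20 to -0.14 for Dctpp1. In sg3 they ran from -0.26 to -0.13 for Srm, from -0.31 to -0.13 for Slc19a1, from -0.21 to 0.021 for Slc29a2 and from -0.15 to -0.044 for Dctpp1. The difference of sg2 from sg3 ran from 0.057 to 0.15 for Srm and from -0.053 to 0.13 for Slc19a1. Between 0 and 3 genes were called lower in sg2, 0 without sgControl replicate 1 or sg2 replicate 3, and between 0 and 2 in sg3. Of 13 MYC targets, 1 to 11 were then called in sg2 and 2 to 10 in sg3. Of all genes, these fits called 20.7% to 30.9% lower in sg2 and 23.6% to 37.5% in sg3. With all libraries, the same count was 10 to 13 in sg2 under the other scalings, 12 with the block and 2 in limma without trend and robust options, it was 3 in both sg2 and sg3 without the length and GC trend, and the 1.2-fold test called 6 in sg1 and 0 in sg2 and sg3. At the depth of Slc29a2, the lowest of the 4 genes, counting error alone was 5.87% to 7.76%.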
